A study of Saccharomyces cerevisiae with 12 samples.

Results

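The PAU, TIR and DAN genes of budding yeast encode secreted mannoproteins, and 30 of the 5085 genes in the authors' deposited tables belong to them by their symbols: 24 PAU genes, 4 TIR genes and 2 DAN genes. The TIR and DAN genes encode serine-rich proteins of the cell wall that carry mannose chains. The PAU genes, called seripauperins because they are poor in serine, encode short proteins related to the amino-terminal part of the TIR and DAN proteins. In wild-type yeast most of these genes are repressed in air by Rox1, Mot3 and the Tup1-Cyc8 complex, and are induced without oxygen by the sterol regulator Upc2; TIR1 and TIR2 also respond to cold. Many PAU genes lie near chromosome ends, a zone where Rap1 takes part in silencing.

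RNA came from log-phase cultures of 1 strain, TH_5234, a MATa haploid whose labelled genotype holds pRAP1::kanR-tetO7-TATA, URA3::CMV-tTA and the markers his3-1, leu2-0 and met15-0. All 12 samples carry these alleles, the control included, so the tetracycline-controlled promoter drives RAP1 in every group, and doxycycline at 0.01, 0.1 or 0.5 µg/mL was added to 3 samples per dose beside 3 control samples without it. Rap1 binds DNA at ribosomal protein genes, genes of glycolysis and telomeres, and is needed for growth; the series asks how lowering it changes expression. The deposited tables hold 1 pooled level per group, in FPKM (a read count scaled to gene length and library size; the unit is inferred from the column names), so the 3 samples of a group cannot be shown one by one and no SD is given. The library depth is unknown. A gene is called higher or lower at a dose where the authors' q (their p-value adjusted over the table) is below 0.05, which is their judgement of the change against the spread between samples. The 3 tables share the same control samples, and the control level of a member differed between them by at most 0.485%, so control levels below are those of the 0.01 µg/mL table and every fold change is taken within its own table.

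The targeted gene itself, RAP1 (YNL216W), stood at 33.3, 31.0 and 22.0 FPKM with rising dose against 31.7 FPKM in the control, and only the change at 0.5 µg/mL was called in the authors' deposited tables (log2 fold change -0.52, or -0.22 relative to the median of all tested genes, q = 0.00764). The log2 fold change of the median tested gene was -0.08 at 0.01, -0.03 at 0.1 and -0.30 at 0.5 µg/mL. Changes of genes called at the highest dose are therefore also given relative to that median. So are the medians of the sets of PAU, TIR and DAN genes there. Markers of the MATa type were abundant (STE2 at 1407 FPKM and MFA1 at 122401 FPKM in the control), and none of the 4 alpha-cell genes was at 0. STE3, MF(ALPHA)1 and SAG1 stood at 15.3, 27.2 and 69.4 FPKM and MF(ALPHA)2 at 204.7 FPKM, the last above the median of 82.5 FPKM over all tested genes.

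The PAU genes are so alike that their reads cannot always be assigned to 1 copy. All 24 have another PAU gene whose protein is at least 95% identical, while none of the 6 TIR and DAN genes has such a relative. By coding identity, counted as the percent of the shorter gene that matches, the PAU genes fell into 4 subgroups when genes at least 92% identical were joined. Subgroup A holds 14 genes (PAU1, PAU2, PAU4, PAU6, PAU8 to PAU14, PAU18, PAU20 and PAU24), subgroup B 6 (PAU3, PAU15, PAU16, PAU19, PAU21 and PAU22), subgroup C PAU5 with PAU7, and subgroup D PAU17 with PAU23. The closest genes of different subgroups were 89.5% identical, and the weakest link that joined a gene to its subgroup was 93.9%, between PAU17 and PAU23. The identity threshold was chosen after the expression values were known, but no expression value enters the grouping.

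A stretch of 120 coding bases shows how the subgroups differ. It covers bases 61 to 180 of PAU18 and the aligned bases of 6 other genes, read 5′ to 3′ on the coding strand of the R64 reference, with capitals for each base that differs from PAU18. PAU18, PAU8 and PAU24 are of subgroup A, PAU15 and PAU21 of subgroup B, PAU5 of subgroup C and PAU23 of subgroup D.
PAU18 (chrXII:13266-13385, minus strand): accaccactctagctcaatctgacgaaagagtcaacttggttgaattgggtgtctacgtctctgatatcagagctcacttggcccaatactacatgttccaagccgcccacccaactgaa
PAU8 (chrI:1990-2109, minus strand): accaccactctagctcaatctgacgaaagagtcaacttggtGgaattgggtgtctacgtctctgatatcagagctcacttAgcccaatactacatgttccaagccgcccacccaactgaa
PAU24 (chrII:809117-809236, plus strand): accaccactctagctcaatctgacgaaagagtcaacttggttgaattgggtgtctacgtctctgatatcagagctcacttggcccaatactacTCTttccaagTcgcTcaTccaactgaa
PAU15 (chrIX:433998-434117, plus strand): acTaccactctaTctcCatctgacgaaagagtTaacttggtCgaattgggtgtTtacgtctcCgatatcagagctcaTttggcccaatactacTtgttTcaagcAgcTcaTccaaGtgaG
PAU21 (chrXV:1082907-1083026, plus strand): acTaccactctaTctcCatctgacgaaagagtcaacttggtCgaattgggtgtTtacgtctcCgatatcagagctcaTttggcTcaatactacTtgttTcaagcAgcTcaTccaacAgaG
PAU5 (chrVI:99414-99533, minus strand): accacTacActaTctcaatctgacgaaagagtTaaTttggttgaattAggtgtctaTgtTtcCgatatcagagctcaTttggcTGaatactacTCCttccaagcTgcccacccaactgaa
PAU23 (chrXII:222871-222990, minus strand): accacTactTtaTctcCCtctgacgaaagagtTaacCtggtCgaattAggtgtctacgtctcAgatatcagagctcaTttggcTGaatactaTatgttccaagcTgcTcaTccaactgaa

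PAU8 differs from PAU18 at 2 of these 120 bases and PAU24 at 6, whereas PAU15 and PAU21 differ at 15 each, PAU5 at 16 and PAU23 at 17. A read of this stretch can therefore match PAU18 and PAU8 with few or no mismatches, and between subgroups it meets several. Within subgroup A, the 6 differences of PAU24 lie close together, so a read there can meet several as well. Of all pairs, 3 have the same coding sequence throughout: PAU1 with PAU14, PAU6 with PAU18, and PAU21 with PAU22. How the authors' alignment divided reads between such copies is not given in the sources used here, so single PAU values below are uncertain and the values of subgroups are given beside them. The heatmap of coding identity shows the 4 subgroups as blocks.

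**Figure D1:**
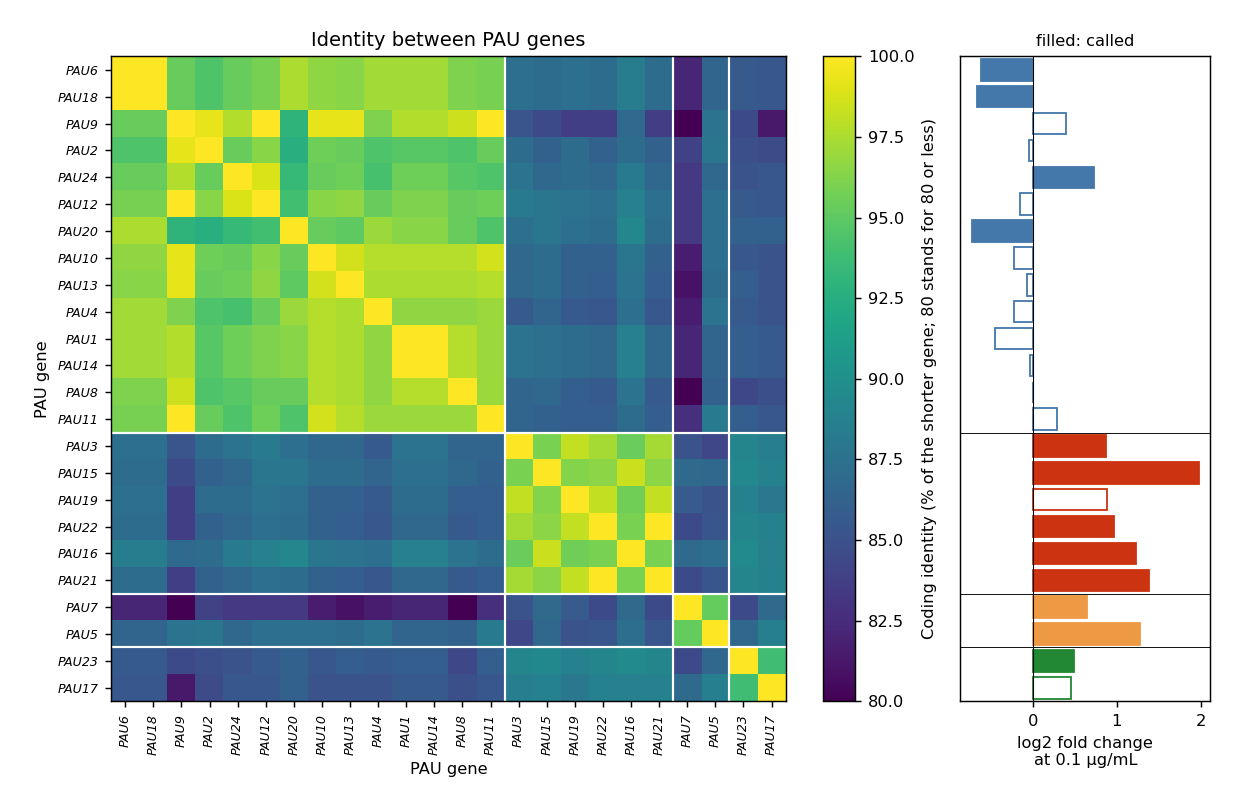
Left, coding identity between the 24 PAU genes as percent of the shorter gene (colours stop at 80%), with white lines between subgroups A, B, C and D from the top. Right, the log2 fold change of the same genes at 0.1 µg/mL doxycycline, filled where the authors' q was below 0.05: the 6 bars of subgroup B lie between 0.88 and 1.98, and those of subgroup A between -0.72 and 0.73.

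The cell wall genes TIR1 to TIR4 and DAN1 were lower in the doxycycline groups, whereas the PAU genes went both ways and DAN4 was called higher at 1 dose. Of the 6 TIR and DAN genes, 4 were called lower at 0.01 µg/mL, where 15.4% of all tested genes were called lower. At 0.1 µg/mL 5 were called lower and 1 higher, against 20.4% and 17.6% of all tested genes. At 0.5 µg/mL 5 were called lower and 0 higher, against 38.9% and 7.49% of all tested genes. Their median log2 fold change was -0.49, -0.61 and -0.80 with rising dose, and -0.50 relative to the median of all genes at the highest dose. Of the 24 PAU genes, 2 were called higher and 3 lower at 0.01 µg/mL (8.75% of all tested genes were called higher there), 9 higher and 3 lower at 0.1, and 6 higher and 1 lower at 0.5 µg/mL. The PAU median was -0.01 at 0.01 µg/mL (0.07 relative to all genes, so its sign depends on the reference), 0.34 at 0.1 and 0.30 at 0.5 µg/mL (0.61 relative to all genes). With genes below 10 FPKM in both groups left out, the PAU median at 0.1 µg/mL was -0.060, so its direction turned. No test of the difference between PAU and TIR or DAN genes was made, since copies that share reads are not independent. In these bulk samples, fewer cells with a transcript and less RNA per cell cannot be told apart.

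**Figure D2:**
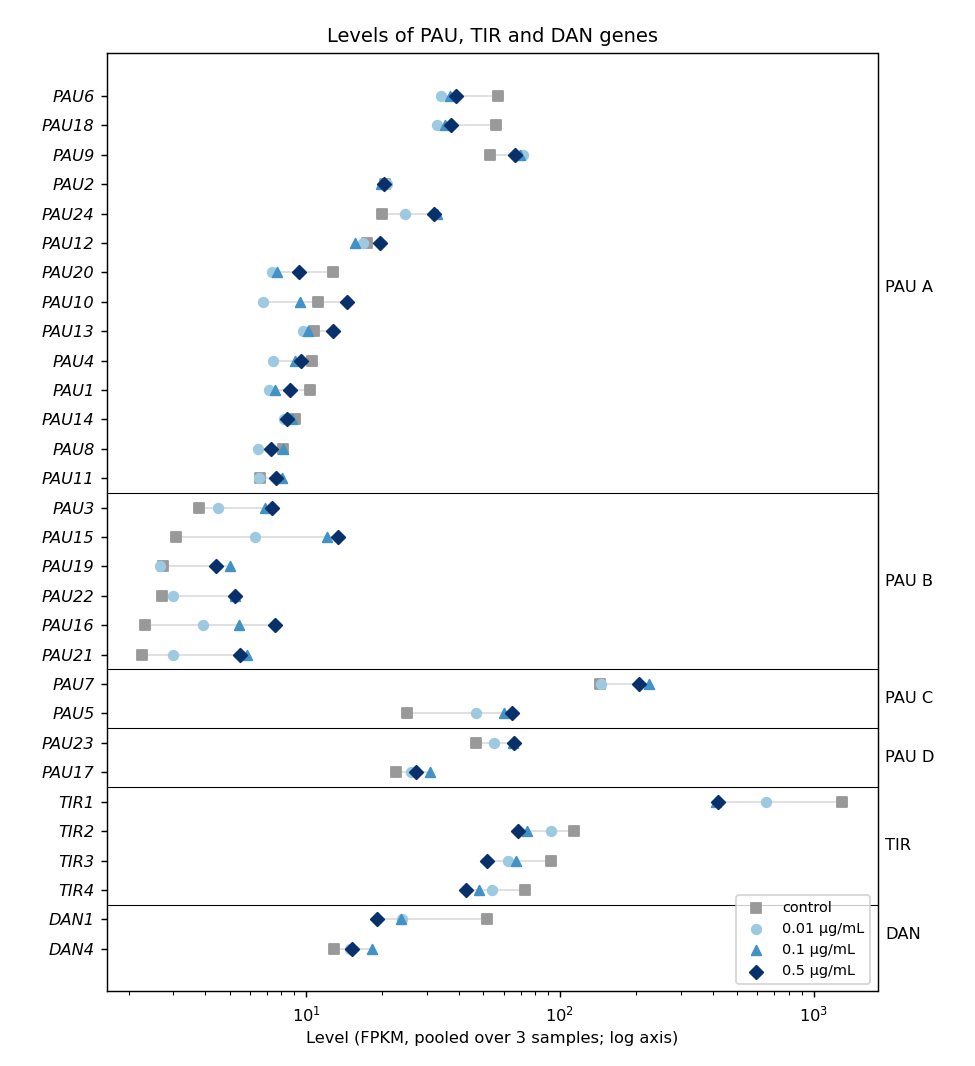
Pooled level (FPKM, log axis) of each of the 30 genes in the control (grey square) and at 0.01 (circle), 0.1 (triangle) and 0.5 µg/mL doxycycline (diamond), 1 value per group with no error bar. TIR1 stands apart at 1298 FPKM in the control, and the 6 genes of PAU subgroup B are the lowest, between 2.26 and 3.78 FPKM.

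TIR1 (YER011W, chromosome V, 175248 to 176012), a cold-shock and anaerobic wall mannoprotein gene, was by far the most abundant member. Its pooled level was 1298 FPKM in the control, and 646.7, 413.8 and 418.9 FPKM at 0.01, 0.1 and 0.5 µg/mL. Every dose was below the control and the 2 higher doses were nearly equal. The fall was 2.01-fold, 3.12-fold and 3.08-fold (q = 0.00206, 0.000329 and 0.000273 in the authors' deposited tables, the latter 2 being the smallest values there). TIR1 made up 79.1% of the summed control level of the TIR and DAN genes, which moved from 1641 FPKM to 894 FPKM at 0.01 µg/mL and 615 FPKM at 0.5 µg/mL.

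The other TIR genes had lower levels and smaller changes. TIR2 (YOR010C), the closest relative of TIR1 with 76.9% coding identity, went from 113.7 FPKM to 92.2, 74.1 and 68.3 FPKM with rising dose. It was not called at 0.01 µg/mL (q = 0.202) and fell at the higher doses, by 0.61 and 0.73 on the log2 scale (q = 0.00252 and 0.000506 in the authors' deposited tables). TIR4 (YOR009W), which is needed for growth without oxygen, went from 72.8 FPKM to 54.1, 47.9 and 42.5 FPKM and fell at all 3 doses (log2 fold changes -0.43, -0.60 and -0.77, q = 0.0451, 0.00294 and 0.000273 in the authors' deposited tables). TIR4 and TIR2 are neighbours on chromosome XV that face each other, with 396 bases between them and no annotated gene in that gap. TIR3 (YIL011W, chromosome IX) went from 92.1 FPKM to 62.5, 67.3 and 51.6 FPKM, with a log2 fold change of -0.56 at 0.01, -0.45 at 0.1 and -0.83 at 0.5 µg/mL, all called lower (q = 0.00591, 0.0239 and 0.000273 in the authors' deposited tables). Relative to the median of all genes, the changes of TIR2, TIR3 and TIR4 at 0.5 µg/mL were -0.42, -0.53 and -0.47, and that of TIR1 was -1.32 (-1.62 before centring).

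The DAN genes, both on the minus strand of chromosome X, split. DAN1 (YJR150C, 708811 to 709707), a wall mannoprotein gene of anaerobic cells, went from 51.7 FPKM to 23.8, 23.8 and 19.0 FPKM, so that all doses lay below 0.5 of the control. Its log2 fold changes were -1.12, -1.12 and -1.44, the last being -1.13 relative to all genes (q = 0.000608, 0.000329 and 0.000273, the smallest value of each of the authors' deposited tables). DAN4 (YJR151C, 712255 to 715740), next to DAN1 with 2547 bases between them and no annotated gene in the gap, stood at 12.9 FPKM in the control and at 14.9, 18.2 and 15.1 FPKM with dose. It rose at 0.1 µg/mL (log2 fold change 0.51, q = 0.00691) and was not called at 0.01 (0.21, q = 0.425) or 0.5 µg/mL (0.24, or 0.54 relative to all genes, q = 0.275), by the authors' deposited tables. DAN4 was the only one of the 6 TIR and DAN genes above its control level at any dose.

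**Figure D3:**
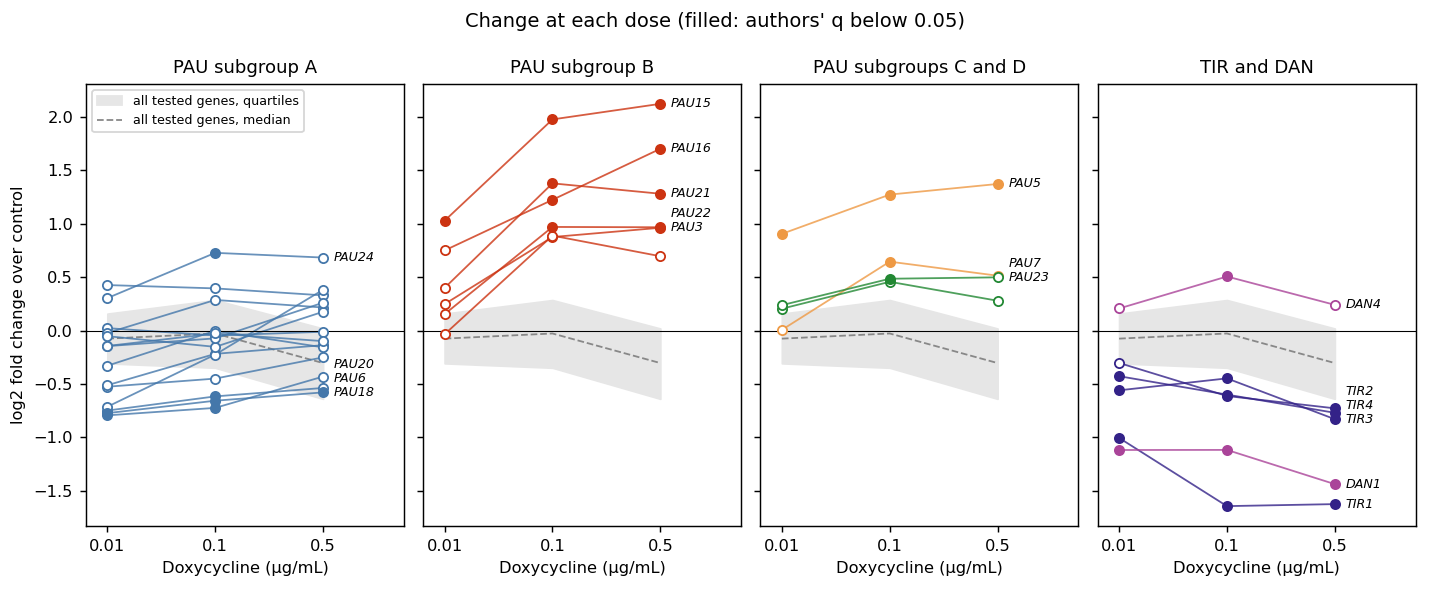
The log2 fold change over the control of each gene by dose in µg/mL, in panels for PAU subgroups A, B, C with D (orange and green), and TIR with DAN (violet and purple); filled points have an authors' q below 0.05, and genes called at any dose are named. The grey band spans the quartiles and the dashed line the median of all tested genes: TIR1 to TIR4 and DAN1 stay below 0 at every dose, and PAU subgroup B lies at or above 0.70 at the 2 higher doses.

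Among the PAU genes, subgroup B held most of the rises. At 0.01, 0.1 and 0.5 µg/mL 1, 5 and 5 of its 6 genes were called higher, against 8.75%, 17.6% and 7.49% of all tested genes. None was called lower at any dose, and the medians were 0.32, 1.10 and 1.12, the last being 1.43 relative to all genes. Relative to all genes at 0.5 µg/mL, the 5 genes called there had 2.43 (PAU15), 2.01 (PAU16), 1.58 (PAU21), 1.27 (PAU22) and 1.27 (PAU3). PAU15 (YIR041W, chromosome IX) went from 3.09 FPKM to 6.30, 12.1 and 13.4 FPKM with rising dose. That was 2.04-fold, 3.94-fold and 4.35-fold (q = 0.0412, 0.000329 and 0.000273 in the authors' deposited tables), the greatest rise of the 30 genes at every dose. PAU16 (YKL224C, chromosome XI), 98.4% identical to PAU15 in coding sequence, went from 2.33 FPKM to 3.92, 5.42 and 7.54 FPKM and was called at the higher doses (log2 fold changes 1.22 and 1.70, q = 0.0142 and 0.00385 in the authors' deposited tables). The pooled levels of both genes were thus ordered by dose, but differences between doses were not tested.

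The other members of subgroup B changed less or had fewer calls. PAU21 (YOR394W, chromosome XV) and PAU22 (YPL282C, chromosome XVI), which share 495 identical coding bases and 600 identical bases upstream, stood at 2.26 and 2.70 FPKM in the control. PAU21 reached 5.86 and PAU22 5.27 FPKM at 0.1 µg/mL (q = 0.000886 and 0.0197), and 5.47 and 5.25 FPKM at 0.5 µg/mL (q = 0.00881 and 0.0305), in the authors' deposited tables. Since nothing in the gene or just upstream separates them, these 2 calls are not independent. PAU3 (YCR104W, chromosome III) went from 3.78 FPKM to 4.49, 6.92 and 7.34 FPKM and was called at 0.1 and 0.5 µg/mL (q = 0.0388 and 0.0354 in the authors' deposited tables). PAU19 (YMR325W, chromosome XIII) was not called, with 2.73 FPKM in the control and 2.66, 5.03 and 4.40 FPKM at the doses (q = 0.981, 0.0643 and 0.199 in the authors' deposited tables). Summed over the 6 genes, the level went from 16.9 FPKM to 23.4, 40.6 and 43.4 FPKM, that is 1.38-fold, 2.41-fold and 2.58-fold. The sum still depends on how reads were divided, since FPKM is scaled to length and the genes run from 372 to 495 coding bases. All 6 genes were below 10 FPKM in the control, which put them between the 0.632 and the 1.21 percentile of all control levels.

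Subgroup C and D genes, which lie farther inside their chromosomes, were also higher at some doses. The subgroup C median was 0.46, 0.96 and 0.94 with rising dose, the last being 1.25 relative to all genes. That of subgroup D was 0.22, 0.47 and 0.39, the last being 0.69 relative to all genes. Summed levels went from 169 FPKM to 192, 285 and 269 FPKM in subgroup C. In subgroup D they went from 69.2 FPKM to 81.0, 96.0 and 92.9 FPKM. PAU5 (YFL020C, chromosome VI) went from 25.04 FPKM to 46.9, 60.3 and 64.5 FPKM and rose at all 3 doses (1.87-fold, 2.42-fold and 2.59-fold, with a log2 fold change of 1.37 at the highest dose, or 1.68 relative to all genes, q = 0.00289, 0.000329 and 0.000273 in the authors' deposited tables). PAU7 (YAR020C, chromosome I), whose annotated coding sequence is 168 bases long, had the highest PAU level, 144.2 FPKM in the control and 144.9, 224.7 and 205.0 FPKM at the doses. It was called at 0.1 µg/mL (log2 fold change 0.65, q = 0.0333) and not at the other doses (q = 0.995 and 0.14) in the authors' deposited tables. FPKM is scaled to length and PAU7 is 95.2% identical to PAU5. The rank of PAU7 and the subgroup C sum therefore depend on that short annotation and on how reads were divided. PAU23 (YLR037C, chromosome XII; also named DAN2) went from 46.7 FPKM to 55.1, 65.2 and 65.7 FPKM and was called at 0.1 µg/mL alone (q = 0.0472, against 0.493 and 0.0603 at the other doses in the authors' deposited tables). Its relative PAU17 was not called (22.5 FPKM in the control, 25.9, 30.8 and 27.2 FPKM at the doses).

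Subgroup A, the largest, held all the PAU genes that fell and 1 that rose. It had 3 genes called lower at 0.01 µg/mL and none higher, 3 lower and 1 higher at 0.1 µg/mL, and 1 lower and none higher at 0.5 µg/mL. Of all tested genes 15.4%, 20.4% and 38.9% were called lower, so 3, 3 and 1 of 14 is near that background at the lower doses and under it at the highest, and these counts show no fall of the subgroup as such. PAU18 (YLL064C, chromosome XII) went from 55.9 FPKM to 32.7, 35.3 and 37.2 FPKM and was called lower at all 3 doses (log2 fold changes -0.77, -0.66 and -0.58, the last being -0.27 relative to all genes, q = 0.0033, 0.00653 and 0.0335 in the authors' deposited tables). PAU6 (YNR076W, chromosome XIV), with the same coding sequence, had 56.9 FPKM in the control and 33.9, 37.0 and 39.1 FPKM at the doses, and was called lower at the 2 lower doses (q = 0.00659 and 0.0121) but not at 0.5 µg/mL (log2 fold change -0.54, or -0.23 relative to all genes, q = 0.0518) in the authors' deposited tables. These identical copies differed in call at 0.5 µg/mL while their fold changes were within 0.05 of each other on the log2 scale at every dose. In both, the level was lowest at 0.01 µg/mL and nearest to the control at 0.5 µg/mL.

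PAU20 (YOL161C, chromosome XV), 97.5% identical to PAU6 and PAU18, went from 12.7 FPKM to 7.33, 7.67 and 9.39 FPKM and was called lower at 0.01 and 0.1 µg/mL (q = 0.0421 and 0.0342) and not at 0.5 µg/mL (q = 0.269), by the authors' deposited tables. PAU24 (YBR301W, chromosome II; also named DAN3) was the exception in the subgroup, at 19.9 FPKM in the control and 24.6, 32.9 and 31.8 FPKM at the doses, with a call at 0.1 µg/mL (log2 fold change 0.73, q = 0.0206 in the authors' deposited table). Its nearest relative by coding identity, PAU12 (98.9%), stood at 17.4 FPKM in the control and 16.8, 15.6 and 19.6 FPKM at the doses, with no call. The subgroup median was -0.24, -0.11 and -0.06 with rising dose, which at 0.5 µg/mL became 0.25 relative to the median of all genes. Summed over the 14 genes the level went from 303 FPKM to 260 FPKM at 0.01, 279 FPKM at 0.1 and 292 FPKM at 0.5 µg/mL.

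No call was made at any dose for 12 of the 24 PAU genes: 10 of subgroup A, with PAU17 and PAU19. Their control levels ranged from 2.73 to 53.0 FPKM, and their log2 fold changes over the 3 doses from -0.71 to 0.89, with q between 0.0643 and 0.986 in the authors' deposited tables. A q above the threshold does not show that these genes stayed the same. No member was called higher at 1 dose and lower at another. The calls at all 3 doses were for PAU5 and PAU15 (higher) and for PAU18, TIR1, TIR3, TIR4 and DAN1 (lower). Of all tested genes, 3828 of 5049 were not called at 0.01, 3135 of 5054 at 0.1 and 2707 of 5047 at 0.5 µg/mL. The share of all genes called at no dose, at all 3 or in both directions was not computed. These counts are therefore not read as a trait of the members.

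Coding length and composition separate the families. The PAU coding sequences run from 129 to 495 bases, those of TIR genes from 756 to 1464 and those of DAN genes from 897 to 3486. Serine makes up 5.83% to 11.9% of the residues encoded by PAU genes, 24.8% to 30.6% by TIR genes and 20.5% to 22.5% by DAN genes. The median control level was 10.9 FPKM for the PAU genes and 102.9 FPKM for the TIR genes.

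Position was read from the R64 annotation. Of the 24 PAU genes, 19 lie within 20 kb of a chromosome end, and none of the TIR and DAN genes does; DAN4 and DAN1 are 30.01 and 36.04 kb from theirs. At 0.1 µg/mL, 6 of the 19 PAU genes within 20 kb were called higher and 3 lower, and 3 of the 5 farther inside were called higher and none lower. At 0.01 µg/mL 1 of the 19 was called higher and 3 lower, and at 0.5 µg/mL 5 were called higher and 1 lower. Of the 5 farther inside, 1 was called higher at 0.01 and 1 at 0.5 µg/mL, and none lower. Among 135 other tested genes within 20 kb of an end, 28.9% (95% Wilson interval 21.9% to 37.0%, which covers counting of genes only) were called higher at 0.1 µg/mL and 9.63% lower, with a median log2 fold change of 0.13. The share among all tested genes was 17.6% higher and 20.4% lower, and the difference was not tested. At 0.01 µg/mL 8.89% of these neighbours were called higher and 8.89% lower, and at 0.5 µg/mL 8.89% and 25.2%. Of all tested genes, 8.75% were called higher and 15.4% lower at 0.01 µg/mL, and 7.49% and 38.9% at 0.5 µg/mL.

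PAU genes close to an end went in both directions. The 6 genes of subgroup B and 13 of the 14 genes of subgroup A all lie within 20 kb of an end, and at 0.1 µg/mL their medians there were 1.10 and -0.15. PAU15 is 5.58 kb from its end, PAU16 1.81 kb, PAU6 2.05 kb and PAU18 13.1 kb. The plot of change against distance shows both subgroups mixed along the axis.

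**Figure D4:**
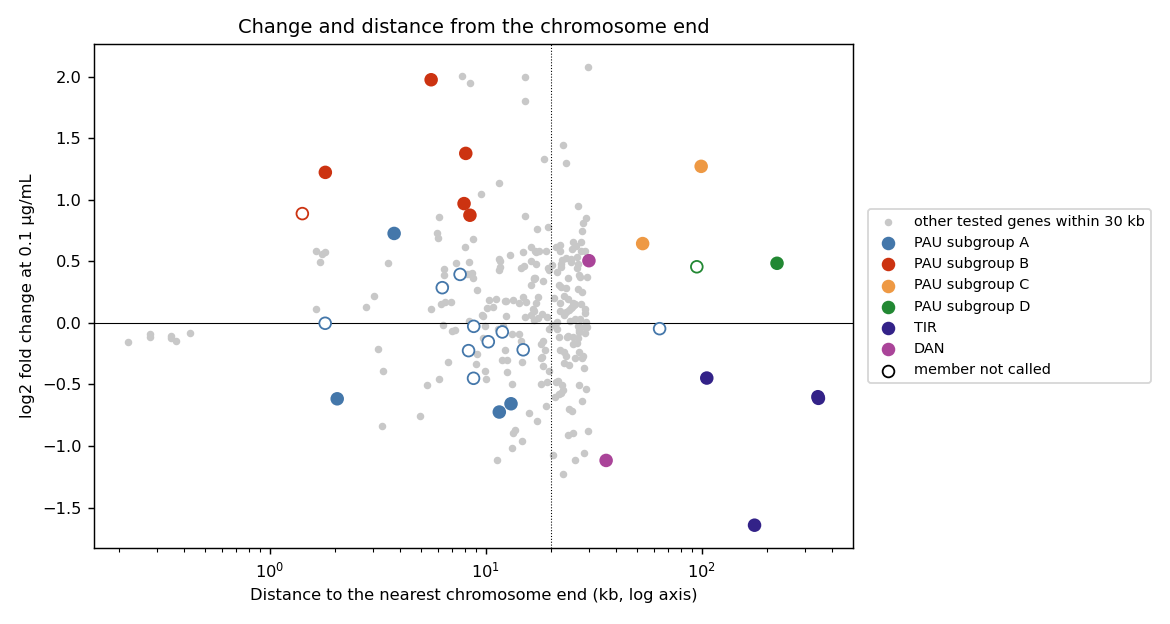
The log2 fold change at 0.1 µg/mL against the distance to the nearest chromosome end (kb, log axis); large points are the 30 genes by subgroup, filled where the authors' q was below 0.05, and small grey points are other tested genes within 30 kb. The dotted line marks 20 kb; subgroup B lies at 0.88 or above and TIR1 at -1.64, the lowest of the 30 genes.

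The DNA upstream of the genes was searched over 600 bases before the start codon, on both strands, for 5 short motifs. TCGTATA and TCGTTTAA are forms of the sterol element bound by Upc2, TCGTTTAG and TCGTTCAG forms of the anaerobic element AR1, and ATTGTT is the core bound by Rox1. At least 1 sterol form was found upstream of 23 of 24 PAU genes, 2 of 4 TIR genes and both DAN genes, against 11.1% of 5999 upstream regions of that length in the genome. At least 1 AR1 form was found for 18 PAU genes, 1 TIR gene and 2 DAN genes, against 3.67% of all. The Rox1 core was found for 17, 4 and 2, but 54.9% of all upstream regions hold it. The Rap1 consensus with at most 1 mismatch, which 3.45% of all upstream regions hold, had no match in these windows for any of the 30 genes. Some PAU upstream regions are close copies (PAU21 and PAU22 are 100% identical over 600 bases), while others are not (PAU17 and PAU23 are 56.5% identical), so these shares do not all count independent occurrences. A match is no evidence of binding.

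Upstream sequences of PAU15, called higher, and PAU18, called lower, are printed, and both carry the same 2 motifs at almost the same place. This pair was picked with its calls known. PAU18 shares all its coding bases with PAU6, so the fall cannot be assigned to either gene alone. The PAU6 upstream region is 87.2% identical to that of PAU18 and holds TCGTTCAG 426 bases upstream on the opposite strand. The printed stretches run from 260 to 111 bases before the start codon in R64, on the strand of the gene. Motif matches are in capitals.
PAU15 (chrIX:433669-433818, plus strand): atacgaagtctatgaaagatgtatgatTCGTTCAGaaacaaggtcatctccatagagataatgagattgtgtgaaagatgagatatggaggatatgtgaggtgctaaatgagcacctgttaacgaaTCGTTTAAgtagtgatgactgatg
PAU18 (chrXII:13556-13705, minus strand): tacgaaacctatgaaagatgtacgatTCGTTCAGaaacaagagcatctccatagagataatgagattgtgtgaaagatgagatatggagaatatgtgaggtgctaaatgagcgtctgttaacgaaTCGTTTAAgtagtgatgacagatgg

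TCGTTCAG begins 233 bases before the start codon of PAU15 and 234 before that of PAU18, and TCGTTTAA begins 134 and 135 bases before. Over all 600 bases the 2 upstream regions were 84.7% identical, while those of PAU15 and PAU16 were 97.3% identical. The same TCGTTTAA stood 134 or 135 bases upstream in 12 PAU genes, of which PAU3, PAU15 and PAU16 rose and PAU6, PAU18 and PAU20 fell at 1 or more doses. The calls of PAU6 and PAU18, which have the same coding sequence, are not independent. PAU21 and PAU22, which also rose, hold TCGTTTAA 14 and 113 bases before their annotated start codons. Their annotated coding sequence starts farther upstream: base 190 of PAU21 aligns with base 70 of PAU15. Distances from the start codon are thus not comparable for this pair, and these 2 genes are not among the 12. The same site could therefore lie upstream of more genes than the 12 counted by distance. These motifs were found before genes called higher and before genes called lower. Whether they bear on the change of any gene was not tested.

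DAN1 and TIR1 are the wall protein genes with the greatest falls, and their upstream stretches with the motif matches in capitals are shown for comparison. That of DAN1 runs from 420 to 171 bases before the start codon and that of TIR1 from 370 to 321.
DAN1 (chrX:709878-710127, minus strand): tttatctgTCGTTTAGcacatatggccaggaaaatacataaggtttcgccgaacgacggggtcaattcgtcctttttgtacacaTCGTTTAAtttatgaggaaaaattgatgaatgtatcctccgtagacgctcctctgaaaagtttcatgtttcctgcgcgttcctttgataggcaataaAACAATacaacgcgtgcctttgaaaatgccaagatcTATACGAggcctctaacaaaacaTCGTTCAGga
TIR1 (chrV:174878-174927, plus strand): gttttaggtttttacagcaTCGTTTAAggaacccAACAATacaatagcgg

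The DAN1 stretch holds all 5 motifs, of which TCGTATA and ATTGTT read on the opposite strand (TATACGA and AACAAT), and that of TIR1 holds TCGTTTAA and, on the opposite strand, ATTGTT. Further copies outside these stretches are not shown. In DAN4, which was not called lower at any dose, TCGTATA, TCGTTCAG and ATTGTT were also found within 600 bases.

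Other genes that are known to be induced without oxygen gave no common direction. Of 12 hypoxic genes, 1 was called higher and 3 lower at 0.01 µg/mL, 2 higher and 3 lower at 0.1, and 1 higher and 6 lower at 0.5 µg/mL, with medians of -0.04, -0.02 and -0.35. Of all tested genes 8.75%, 17.6% and 7.49% were called higher and 15.4%, 20.4% and 38.9% lower, and the list's median at 0.5 µg/mL was near the -0.30 of all genes. ANB1, an anaerobic form of translation factor eIF5A, fell with log2 fold changes of -1.12, -1.67 and -1.84 (the last -1.53 relative to all genes), and the fatty acid desaturase gene OLE1 fell with -0.78, -0.95 and -1.13 (-0.83 relative to all genes), in the authors' deposited tables. CYC7, a cytochrome c gene expressed at low oxygen, rose with 2.24, 1.96 and 1.52 (1.82 relative to all genes) there. The sterol importer gene AUS1 was called lower at 0.01 and 0.5 µg/mL (-0.46 and -0.70, the latter -0.40 relative to all genes) and not at 0.1 µg/mL (-0.32, q = 0.108), and its relative PDR11 was called higher at 0.1 µg/mL (0.51), in the authors' deposited tables.

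The regulators of the family were mostly not called at the 2 lower doses. Of 12 measured, 1 was called lower at 0.01 µg/mL, 1 at 0.1 and 5 at 0.5 µg/mL, and 0 higher at any dose; SUT1, also on the list, was not analysed here. The 5 of 12 at 0.5 µg/mL is near the 38.9% of all tested genes called lower at that dose, and 1 of 12 is below the 15.4% and 20.4% at the lower doses. The gene called at the lower doses was MGA2, an activator of OLE1 (log2 fold changes -0.86, -1.08 and -1.44, the last -1.14 relative to all genes, in the authors' deposited tables). UPC2 was at 18.1 FPKM in the control and was called lower at 0.5 µg/mL (-0.81, or -0.50 relative to all genes) after -0.30 and -0.39 with no call, and MOT3 at 0.5 µg/mL (-0.68, or -0.38 relative to all genes) in the authors' deposited tables. At that dose the deacetylase genes HDA1 and RPD3 had -0.84 and -0.68 there, or -0.54 and -0.38 relative to all genes. ROX1 (0.18, 0.21 and -0.10) and TUP1 (-0.01, 0.01 and -0.31) were not called at any dose. Whether a regulator's level bears on the PAU, TIR or DAN genes was not tested.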

How the data were processed

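RNA sequencing of 12 yeast samples in 4 groups of 3 was used through 3 tables, 1 for each dose with the control. The tools were Bowtie2, Cuffdiff and FastQC on build R64, per the submitters' processing notes; their versions, settings and strand handling are not given in the sources used. The FPKM values are the authors' pooled levels of a group; the unit is inferred from the column names. The deposited log2 fold changes and the q-values (adjusted p-values) were made by the authors, per the file headers, which call the control WT. The labels do not say whether samples of a group were separate cultures, so q may measure technical spread.

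Here log2 ratios were recomputed from the levels without a pseudocount and differed from the deposited ones by at most 1.27e-05. Genes at 0 in a group or at a q of 1 were not tested; all 30 members were tested at every dose. Lines left blank (3 in every table) were not analysed here. Positions and sequences were read from RefSeq's R64 assembly, to which 5013 genes matched by identifier, including all 30 members; alignments used Biopython 1.88. The counting, alignment and motif steps were tested on simulated data. All TIR and DAN genes are named, PAU genes where called or among the 3 highest in the control, and up to 6 called genes of each context list; PAU12, PAU17, PAU19, ROX1, TUP1, FIT1, FIT3, TIP1, STE2, STE3, MF(ALPHA)2 and MFA1 were named after their values were seen. Members, lists and comparisons were chosen with earlier results of these data known. The alternatives tried were a q of 0.01, a 2-fold minimum, a 10 FPKM filter, a 1 FPKM pseudocount, centring on all genes, leaving out near-identical genes and other distances from chromosome ends. Depth is unknown, so no interval or floor of a level is given.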

Additional observations from a re-analysis of the deposited data

How the results depend on the processing

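No paired analysis was possible because the tables hold pooled levels that carry no replicate number; for the same reason no sample could be left out. In the main setting 2, 10 and 6 members were called higher at 0.01, 0.1 and 0.5 µg/mL. A q below 0.01 left 1, 4 and 4, a 2-fold minimum 1, 4 and 4, and a level of at least 10 FPKM 1, 6 and 2. Leaving out genes with a near-identical copy (a protein at least 95% identical), which removes all 24 PAU genes, left 0, 1 and 0. Protein identity does not measure how many reads are shared. PAU5, called higher at all 3 doses, is at most 88.6% identical in coding sequence to PAU genes outside subgroup C. Its partner there, PAU7, has 168 coding bases. Called lower were 7, 8 and 6 members, of which a q below 0.01 left 5 at each dose. A 2-fold minimum left 2 at each dose (TIR1 and DAN1), and leaving out near-identical genes left 4, 5 and 5. Counting identical coding copies once, chosen after seeing the data, kept each count within 1.5 times.

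The PAU median with at least 10 FPKM was -0.053, -0.060 and 0.27, so that at 0.1 µg/mL its sign turned from 0.34; subgroup B, all below 10 FPKM in the control, is mostly lost by that filter. Relative to all tested genes the PAU median was 0.068, 0.37 and 0.61 and that of TIR and DAN genes -0.42, -0.58 and -0.50. A 1 FPKM pseudocount gave 0.32 for PAU genes at 0.1 µg/mL, and -0.60 and -0.79 for TIR and DAN genes at 0.1 and 0.5 µg/mL. No PAU median exists without near-identical genes. Within 10 kb of an end, 3.57% of other genes were called lower at 0.1 µg/mL. The cause of these differences was not tested beyond the genes each setting removes.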

Other observations

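Several other mannoprotein genes of the cell wall rose. Of 15 measured genes on a list of further wall proteins, 8 were called higher at each dose, and 0, 1 and 1 lower, with medians of 0.43, 0.96 and 0.88. Of all tested genes 8.75%, 17.6% and 7.49% were called higher and 15.4%, 20.4% and 38.9% lower. SPI1, a wall protein gene of stressed cells, had log2 fold changes of 1.26, 1.36 and 0.88 (the last 1.18 relative to all genes), the repeat protein gene PIR3 1.12, 1.40 and 1.42 (1.72 relative to all genes), and SED1, an abundant wall protein gene, 0.94, 1.17 and 1.33 (1.63 relative to all genes), in the authors' deposited tables. PST1, HSP150 and FIT2 were also among the 8, while FIT1, an iron-related wall protein gene like FIT2 and FIT3, fell at 0.1 and 0.5 µg/mL (-0.51 and -0.85, the latter -0.55 relative to all genes). TIP1, the namesake relative of the TIR genes, was not called at any dose and stood at 4225 FPKM in the control and at 5045, 4616 and 3610 FPKM at the doses. PIR1, also on the list, was not analysed here.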
